A study of Mus musculus with 19 samples.

Results

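Kdm6a and Kdm6b, the mouse genes for the demethylases of lysine 27 of histone H3, were described by the CBFA2T2 chromatin immunoprecipitation (ChIP) peaks that lie in them or close by. All peaks of both CBFA2T2 peak lists that reached into either gene or within 20 kb of it were taken, which gave 8 of 6920 peaks in the H3.3WT list and 8 of 8272 in the H3.3K27M list. Of the 8 peaks in each list, 7 belonged to Kdm6b and 1 to Kdm6a. Given the 2 genes, position alone chose these peaks. The genes themselves were chosen with earlier results of these data known.

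Both lists came from NE-4C cells, a mouse neural stem cell line that is deficient for p53, in which H3f3a had been knocked out, one of the genes that encode histone H3.3. HA-tagged H3.3 was stably expressed in them, wild-type in the H3.3WT cells and with methionine in place of lysine 27 in the H3.3K27M cells. The same CBFA2T2 antibody was used in both, with 1 library per genotype, and the labels do not say whether a line is a single clone. No difference between the genotypes could therefore be tested, and each value is given for one library and then the other. The knockout of Cbfa2t2 in H3.3WT cells, which would show what the antibody recovers without its target, and the inputs and histone ChIP libraries of the 19 samples were not analysed here. The lists hold no read counts, so depth is unknown, and no expression values, so the cell type could not be checked against its markers.

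KDM6A (also UTX) and KDM6B (also JMJD3) are JmjC dioxygenases that use iron and alpha-ketoglutarate to remove methyl groups from trimethylated and dimethylated H3K27. They act against PRC2, the Polycomb complex that places this mark and that H3.3K27M inhibits. KDM6A also sits in the KMT2C and KMT2D complexes, which methylate H3K4 at enhancers, and its gene lies on the X chromosome and has a Y-linked paralogue, Uty. KDM6B is encoded by an autosomal gene that responds to inflammatory and differentiation signals and takes part in neural commitment. CBFA2T2 (MTGR1) is a corepressor of the MTG family that reaches DNA through other factors and recruits histone deacetylases.

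CBFA2T2 lay over the transcription start of Kdm6a in both lists. The Kdm6a peak spanned chrX:18162217-18162837 in H3.3WT, with a summit 99 bp before the start at 18162575, and chrX:18162183-18162899 in H3.3K27M, with a summit 17 bp before it. Each peak covered all 300 bases of the promoter window that RefSeq gives for the gene, from 250 bases before the start to 50 bases after. The sequences below show that window, that of its Y-linked paralogue Uty, which had no peak, and the only other promoter among the 40 related genes described further on that held a summit of both lists together with the letters CACGTG, an internal start of the H3K9 and H3K36 demethylase gene Kdm4c. Sequences are from RefSeq (GRCm38.p6, the assembly of mm10), 5′ to 3′ on the strand of the gene, and capitals mark CACGTG, the palindromic E-box, and the GC box GGGCGG, which reads as CCGCCC where it lies on the opposite strand.
Kdm6a, plus strand, chrX:18162325-18162624: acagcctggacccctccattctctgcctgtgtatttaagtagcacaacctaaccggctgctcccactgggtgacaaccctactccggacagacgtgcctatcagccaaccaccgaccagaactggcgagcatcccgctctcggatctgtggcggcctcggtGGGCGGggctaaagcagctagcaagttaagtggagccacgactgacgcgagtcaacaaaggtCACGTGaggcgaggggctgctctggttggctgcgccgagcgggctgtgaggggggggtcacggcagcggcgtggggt
Uty, minus strand, chrY:1245710-1246009: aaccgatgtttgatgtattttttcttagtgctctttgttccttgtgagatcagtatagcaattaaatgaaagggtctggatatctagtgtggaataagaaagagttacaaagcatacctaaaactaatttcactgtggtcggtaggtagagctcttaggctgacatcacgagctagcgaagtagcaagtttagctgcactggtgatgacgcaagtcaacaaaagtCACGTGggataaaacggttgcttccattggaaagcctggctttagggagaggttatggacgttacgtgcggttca
Kdm4c, plus strand, chr4:74251629-74251928: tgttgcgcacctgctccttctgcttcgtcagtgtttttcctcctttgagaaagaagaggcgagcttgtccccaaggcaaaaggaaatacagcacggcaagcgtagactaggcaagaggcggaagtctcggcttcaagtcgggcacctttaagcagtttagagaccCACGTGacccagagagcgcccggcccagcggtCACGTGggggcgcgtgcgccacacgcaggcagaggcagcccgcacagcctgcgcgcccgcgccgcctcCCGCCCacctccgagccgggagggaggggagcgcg

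In the Kdm6a sequence, CACGTG begins at base 224, counted from 1 at the 5′ end, and the GC box at base 162. The H3.3WT summit fell on base 152 and the H3.3K27M summit on base 234. Uty carries CACGTG at nearly the same place, at base 226, and a global alignment of the Kdm6a and Uty windows had 54.9% identical columns (186 of 339). Uty has no GC box in this window, and its GC content was 42.3% against 63% for Kdm6a. In the Kdm4c window CACGTG occurs at bases 166 and 198, and the summits fell on bases 34 and 179.

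The search used 10 short motifs on both strands of all 21263 promoter windows of protein-coding genes. CACGTG was in 7.84% of all windows and in 12.9% of the 2515 windows that held a summit of both lists. GGGCGG was in 46.2% and 64.8%, and the Kdm6a window held both. The ETS core CCGGAA was in 18.7% of all windows and in 49.4% of those with summits, and these letters are not in the Kdm6a window. Any E-box CANNTG, which counts CACGTG and CAGCTG too, was in 69.0% and 57.6%, and CACGTG was the single match in Kdm6a. The E-box form CAGCTG, the CCAAT box (these 5 letters), the NRF1 core CGCATGCG, the AP-1 word TGANTCA, the cyclic AMP response element TGACGTCA and the GFI1 core AAATCAC had no match in the Kdm6a window. Matches are descriptions of the letters and not binding sites.

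The level of the Kdm6a peak was close to the middle of both lists. Its fold enrichment, the ratio of ChIP signal at the summit to local background as the authors' peak caller gives it, was 5.96 for H3.3WT and 5.49 for H3.3K27M. The −log10 q, the caller's adjusted significance for a peak, was 9.32 and 12.5. By fold it stood above 46.0% of the peaks called for H3.3WT and 47.5% of those called for H3.3K27M, and by −log10 q above 47.1% and 59.8%. Fold was thus lower and −log10 q higher in H3.3K27M, with no replicate against which either difference could be judged. The summits lay 82 bp apart, against a median of 43 bp over all shared peaks.

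**Figure D1:**
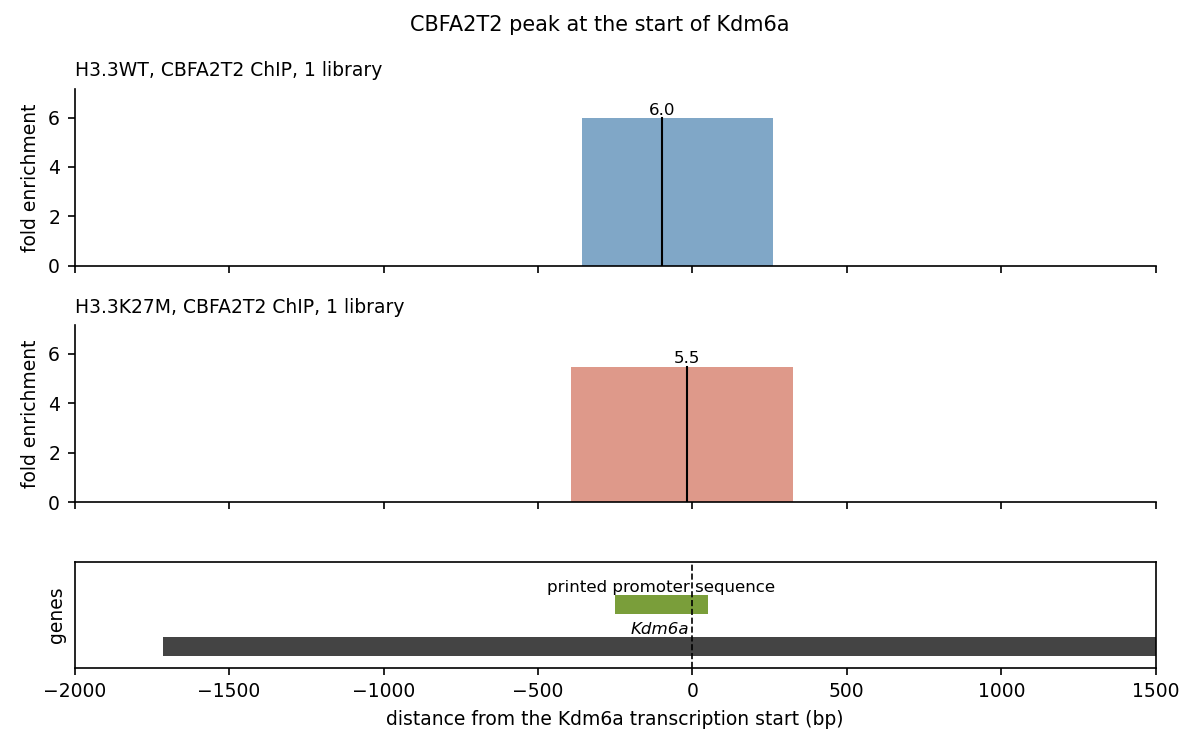
CBFA2T2 peak at Kdm6a in H3.3WT (upper panel) and H3.3K27M (middle panel), with bar height as fold enrichment, bar width as peak extent and the black line at the summit, against distance in bp from the transcription start (dashed line). Both peaks cover the whole printed promoter sequence (lower panel, green), with folds of 5.96 and 5.49.

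Kdm6a had no other peak along its 119 kb. The RefSeq span of Kdm6a runs from 18160862 to 18279936 on chromosome X and opens 1713 bp before the start used here, so the peak is inside the span and away from its outer end. The nearest H3.3WT peak beyond the 20 kb limit lay 372397 bp before the gene (8.39 fold), and the nearest H3.3K27M peak 202259 bp before it (8.81 fold). On the other side the next peaks were 1626861 and 1626834 bp away, at 7.998 and 6.78 fold. A single peak within 20 kb was common: of the 21887 protein-coding genes, 5908 had exactly 1 in H3.3WT and 6254 in H3.3K27M, and 41.8% and 46.5% had at least 1. The neighbours within 20 kb, the phosphatase gene Dusp21, the lncRNA gene Gm41891 and the pseudogene Gm4730, were met by no peak.

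Kdm6b stood in a dense group of peaks. Its span on chromosome 11 runs from 69398508 to 69420367, 21.9 kb in length, and 7 peaks of each list lay in it or within 20 kb. As many or more were found at 0.0777% of protein-coding genes in H3.3WT (17 genes) and 0.151% in H3.3K27M (33 genes). These counts include Kdm6b itself, and a peak counts for every gene within 20 kb, so neighbouring genes share peaks. At 5 fold or more, 3 of the 7 remained for H3.3WT and 4 of the 7 for H3.3K27M, counts that 2.29% and 0.548% of genes then reached. All 7 of each list overlapped a peak of the other, and together they formed 6 sites. Such overlap was common, at 79.4% of all H3.3WT peaks and 66.3% of all H3.3K27M peaks. The next peaks lay 29486 bp (H3.3WT, 4.199 fold) and 57646 bp (H3.3K27M, 2.52 fold) from the gene on the side of Tmem88, and 158790 bp (6.14 fold) and 126344 bp (4.41 fold) on the side of Dnah2.

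**Figure D2:**
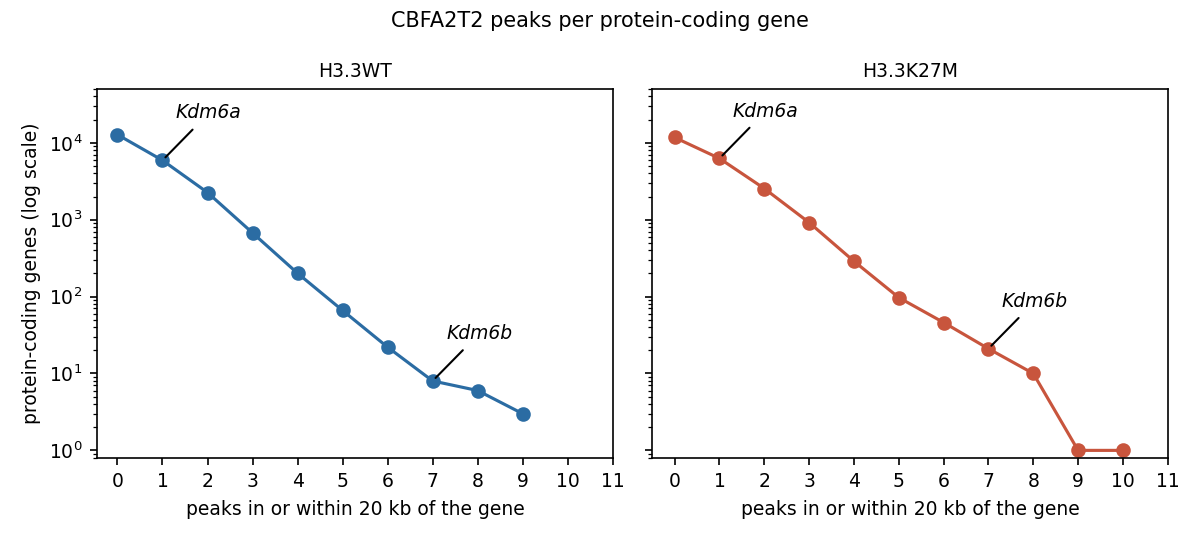
Number of protein-coding genes (log scale) by the number of CBFA2T2 peaks in them or within 20 kb, for H3.3WT (left) and H3.3K27M (right), 1 library each. Kdm6a, with 1 peak, lies in a class of 5908 and 6254 genes, and Kdm6b, with 7, in the sparse end of both distributions.

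The highest of these peaks was outside Kdm6b, where the ends of its neighbours meet. It spanned chr11:69395226-69396358 in H3.3WT, with 26.6 fold and −log10 q of 123.9, and chr11:69395079-69396451 in H3.3K27M, with 24.3 fold and −log10 q of 149.0. These folds exceeded 98.1% and 97.9% of the peaks in their lists. The summits, 10 bp apart, lay inside Naa38, which codes for an auxiliary subunit of the NatC N-terminal acetyltransferase. The H3.3WT summit was 277 bp from the nearer end of Naa38, 341 bp from the end of Cyb5d1, a gene for a cytochrome b5 domain protein, and 448 bp from the end of Tmem88, a membrane inhibitor of Wnt signalling. From the nearer end of Kdm6b it was 2440 bp away, and 2430 bp in H3.3K27M, so Kdm6b was not among the genes whose ends it met.

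A weaker peak had its summits in the 273 bp between Tmem88 and Kdm6b. Its fold was 4.58 in H3.3WT, where −log10 q was 6.30, against 4.18 in H3.3K27M, where −log10 q was 4.75, below most peaks of either list. Its summits, 93 bp apart, were 178 and 271 bp from the end of Kdm6b and 96 and 3 bp from the end of Tmem88. The peak, 535 bp wide in H3.3WT and 477 bp in H3.3K27M, reached past this gap. In H3.3WT 157 of its bases lay in Kdm6b and 105 in Tmem88, and in H3.3K27M none lay in Kdm6b and 270 in Tmem88. This was the one peak that met an end of Kdm6b by a summit within 1 kb, a kind of peak that 25.7% of protein-coding genes had in H3.3WT, against 29.6% in H3.3K27M. No strand or promoter window for Kdm6b, Tmem88, Naa38 or Cyb5d1 was used, so these ends are not called starts or finishes.

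Inside Kdm6b, 5 summits of each list fell between the middle of the gene and its end towards Dnah2, an axonemal dynein gene. The part nearer Tmem88 was free of summits for 10945 bp in H3.3WT and 10971 bp in H3.3K27M. The first internal peak had 5.998 fold in H3.3WT and 5.30 in H3.3K27M, with summits 26 bp apart. Further on, the second had 4.72 and 4.39 fold, with summits 13 bp apart. These summit distances are below the median of 43 bp over shared peaks.

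The remaining internal sites were divided differently by the caller in the lists. One H3.3WT peak of 1496 bp (4.77 fold) at chr11:69414753-69416248, longer than 99.2% of its list, met H3.3K27M peaks of 867 bp (4.44 fold) and 741 bp (5.24 fold). Conversely, H3.3WT peaks of 670 bp (9.44 fold) and 587 bp (4.36 fold) fell within a single H3.3K27M peak of 2221 bp (9.06 fold) at chr11:69417052-69419272, longer than 99.9% of its list. That last site was the strongest inside the gene, with −log10 q of 20.6 and 26.5, and its main summits were 43 bp apart. The equal count of 7 therefore does not stand for 7 matched peaks. With an overlap of at least 50% of both peaks, 4 of 7 were shared in each list.

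**Figure D3:**
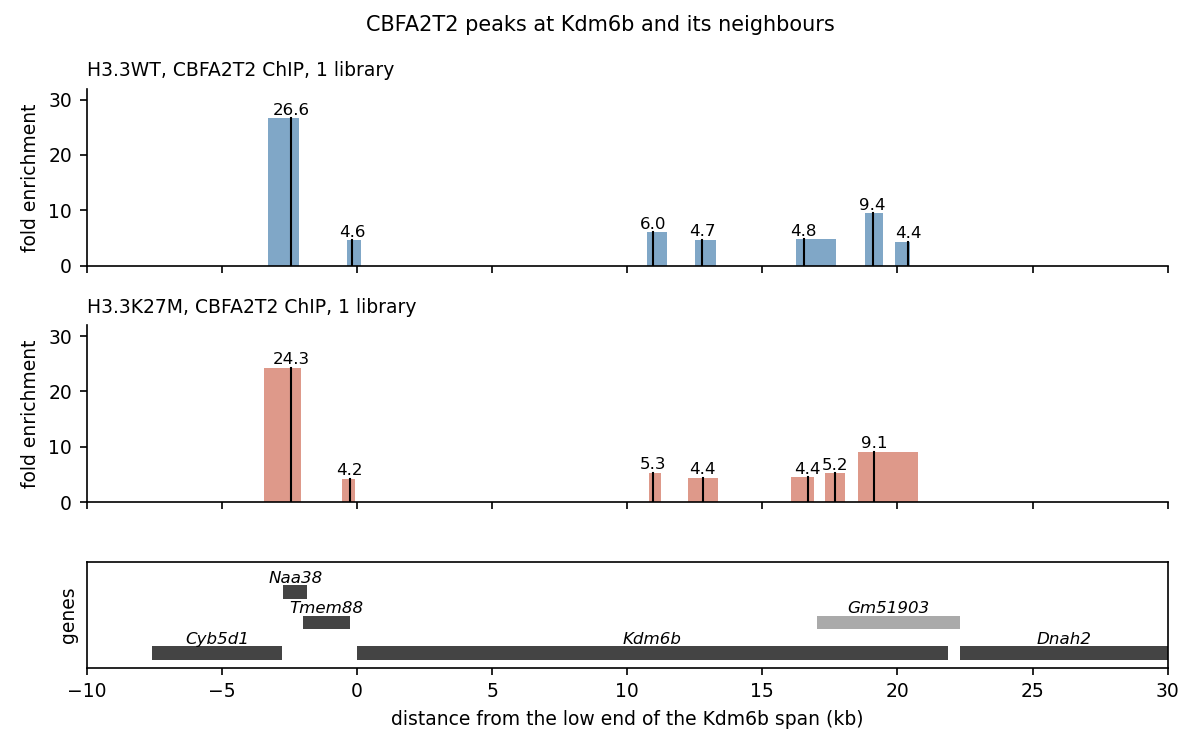
CBFA2T2 peaks at Kdm6b in H3.3WT (upper panel) and H3.3K27M (middle panel), with bar height as fold enrichment, bar width as peak extent and black lines at summits, against distance in kb from the end of Kdm6b next to Tmem88; the lower panel shows protein-coding genes (dark) and an lncRNA gene (light). The highest peak, at 26.6 and 24.3 fold, is over Naa38, and the internal peaks of Kdm6b lie beyond its middle.

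The lncRNA gene Gm51903 (69415513 to 69420803) overlaps Kdm6b by 4855 bp at the end towards Dnah2. The strongest internal site lay inside both genes, and the long H3.3WT peak shared 736 bases with Gm51903. The second of the H3.3K27M peaks that this long peak met, 741 bp wide, lay wholly in Gm51903. An end of Gm51903 was also met within 1 kb: the summit of the long H3.3WT peak was 472 bp from it, and those of its H3.3K27M partners 329 and 674 bp. A peak in the common stretch cannot be assigned to Kdm6b or to Gm51903 by position. The span of Dnah2 lies 439 bp beyond Kdm6b. The RefSeq start of Dnah2 is at its far end, 69549108, so the end facing Kdm6b is where its transcripts finish. No summit of the 7 met that end of Dnah2: the nearest, the last H3.3WT summit in Kdm6b, was 1901 bp away.

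Peaks covered 4388 bp of Kdm6b in H3.3WT, 20.1% of the span, and 5371 bp in H3.3K27M, 24.6%. Such sums grow with what the caller joins and do not by themselves show more binding. Across the 6 sites the highest fold was lower in H3.3K27M at 5 and higher at 1, whereas the highest −log10 q was higher in H3.3K27M at 4 and lower at 2. Among all H3.3WT peaks with a partner, the partner had the lower fold in 53.6% and the lower −log10 q in 38.9%. Sites in one locus share their source and are not replicates.

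Few genes held as many internal summits as Kdm6b. At least 5 internal summits were found at 0.0274% of protein-coding genes in H3.3WT (6 genes) and at 0.0320% in H3.3K27M (7 genes), and 4 genes (0.0183%) had them in both. The other three, named after their values were seen, were Tex14 (7 and 6 summits), a gene of germ cell bridges, the ubiquitin ligase gene Rnf220 (7 in both) and the imprinted splicing factor gene Snrpn (6 and 5). These span 150.8 to 467.7 kb, against 21.9 kb for Kdm6b. Of the 12368 protein-coding genes no longer than Kdm6b, itself included, none other had more than 4 internal summits in either list. The count includes low peaks: at 5 fold or more Kdm6b kept 2 internal peaks for H3.3WT and 3 for H3.3K27M.

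**Figure D4:**
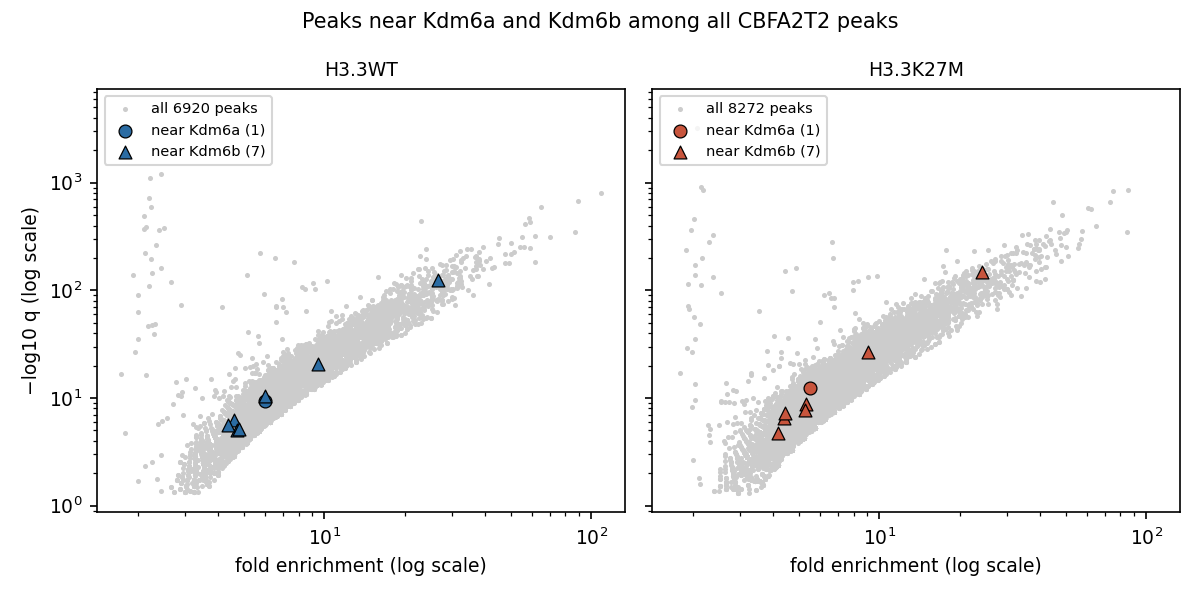
Fold enrichment against −log10 q (both log scales) of every peak in the H3.3WT list (left, 6920 grey points) and the H3.3K27M list (right, 8272), with the peak at Kdm6a as a circle and the 7 peaks near Kdm6b as triangles. One triangle per list, the peak over Naa38 at 26.6 and 24.3 fold, stands in the upper range, and the others lie between 4.18 and 9.44 fold.

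Likeness to other genes was measured as Euclidean distance over 4 values: the log2 of 1 plus the number of peaks within 20 kb and the log2 of the highest fold inside the gene, in each list. It was computed for the 2955 other genes with an internal summit in both lists. Kdm6a had many near neighbours, with 439 genes within a distance of 0.5. The nearest were the sarcoglycan gene Sgcd (5.9985 and 5.56 fold inside), the histone co-chaperone gene Dnajc9 (6.02 and 5.55 fold) and Zbtb2 (5.88 and 5.49 fold), each with 1 peak per list. Only 1 gene came that close to Kdm6b, the linker histone gene H1f3 (distance of 0.46), with 8 and 7 peaks within 20 kb and internal folds of 7.29 and 7.86. Next were Elp5, an Elongator subunit gene (5 and 6 peaks, 10.5 and 8.21 fold), and the histone gene H4c11 (6 and 7 peaks, 7.88 and 6.78 fold). The measure covers peak number and height in 2 libraries and nothing else.

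Kdm6a, Kdm6b and Uty were set beside 37 other genes. These were 9 genes of the KMT2C and KMT2D complexes that hold KDM6A, 11 PRC2 genes and 17 other JmjC demethylase genes. A gene counted when a summit lay within 1 kb of its RefSeq start, or of either end where no start was given. Of all 40 genes, 24 had such a peak in H3.3WT and 28 in H3.3K27M, beside the 25.7% and 29.6% of all protein-coding genes given above. At 5 fold or more, 18 and 16 remained, where 19.6% and 19.9% of all protein-coding genes had such a peak. Ordered by −log10 q, Kdm6a ranked 17 of 24 for H3.3WT and 13 of 28 for H3.3K27M, and Kdm6b, by its peak next to Tmem88, 19 of 24 and 23 of 28. By the peak at a gene end, both H3K27 demethylase genes thus had moderate or low significance among these genes. No start was given for Kdm6b, so either of its ends counted, whereas Kdm6a was ranked at its start. The strongest site inside Kdm6b, with −log10 q of 20.6 and 26.5, did not enter this ranking.

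Uty had no peak within 20 kb in either list. The nearest peak on chromosome Y lay 46475 kb from its start in both, and whether these cells carry Uty was not tested. The CACGTG of the printed sequences was therefore under a peak at Kdm6a and under none at Uty.

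Genes of the KMT2C and KMT2D complexes, which hold KDM6A, had an end peak at 5 of 9 members for H3.3WT and 6 of 9 for H3.3K27M. Of all protein-coding genes, 25.7% and 29.6% had one. The median fold of the group was 7.14 and 7.52, where all genes with such a peak had 6.82 and 6.20. Rbbp5, a core subunit, had the highest −log10 q of all 40 genes, with 25.02 fold for H3.3WT and 28.3 fold for H3.3K27M. Kmt2c, a catalytic subunit, had 6.07 and 9.17 fold, with summits 950 and 963 bp from its start, near the 1 kb limit. Pagr1a had 7.14 and 11.4 fold, and the core subunit gene Wdr5 6.57 and 5.86 fold. Paxip1 had 10.03 and 3.54 fold, the lowest of the group in H3.3K27M. Of the 5 genes with a peak in both lists, fold was thus higher in H3.3K27M at 3 and lower at 2. Among all shared H3.3WT peaks, the H3.3K27M partner had the lower fold in 53.6%. Kmt2d, the other catalytic subunit, had none at its start but had 1 and 2 summits inside. Ncoa6 and Ash2l also had none at an end, and Dpy30 had one in H3.3K27M alone (4.44 fold).

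PRC2 genes, whose products place the mark that KDM6A and KDM6B remove, had a peak at the same 8 of 11 members in both lists, with a median of 5.39 and 6.42 fold. Jarid2, a PRC2 cofactor, had 9.60 and 11.5 fold, Rbbp4 5.31 and 8.45 fold, and the core subunit gene Suz12 5.47 and 7.15 fold. Aebp2 had 4.73 and 7.64 fold, with summits 918 and 904 bp from its start, near the 1 kb limit. In the other direction, Mtf2, a PRC2 accessory subunit gene, had 9.60 and 4.16 fold and the core subunit gene Eed 6.78 and 5.69 fold. Fold was higher in H3.3K27M at 6 of the 8 and lower at 2, where 53.6% of all shared H3.3WT peaks had a partner of lower fold. With 1 library per genotype, a shift of this group was not tested. The catalytic subunit gene Ezh2 was the weakest of the 24 in H3.3WT at 3.24 fold, against 4.28 fold in H3.3K27M. Kdm6b had 4.58 and 4.18 fold by the peak with summits between it and Tmem88, which lay nearer to Tmem88. Whether that end of Kdm6b is its start was not given. Ezh1, Rbbp7 and Phf1 had no peak at their start.

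Other JmjC demethylase genes had an end peak at 9 of 17 members for H3.3WT and 12 of 17 for H3.3K27M, the 9 included. Of all protein-coding genes, 25.7% and 29.6% had one. Median folds of the group were 6.47 and 4.70, where all genes with such a peak had 6.82 and 6.20. The H3K4 demethylase gene Kdm5a had the highest summed −log10 q of both lists, with 17.995 and 8.696 fold, followed in that order by Kdm4d (11.4 and 11.5 fold), the H3K9 demethylase gene Kdm3a (7.66 and 5.80 fold) and the X-linked Phf8 (5.74 and 10.04 fold). By fold alone, Kdm4d and Phf8 stood above Kdm5a in H3.3K27M. Of the 9 genes with a peak in both lists, fold was higher in H3.3K27M at 3 and lower at 6, beside the 53.6% of shared peaks given above. Kdm5b, Phf2 and Kdm4b had one in H3.3K27M alone, between 3.36 and 4.74 fold. Jmjd1c had none at its start and 1 internal summit in H3.3WT. Kdm5c, the X-linked H3K4 demethylase gene, had no peak within 20 kb in either list, in contrast to X-linked Kdm6a and Phf8. Kdm7a, Kdm8 and Y-linked Kdm5d had none either, and whether these cells carry Kdm5d was not tested.

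**Figure D5:**
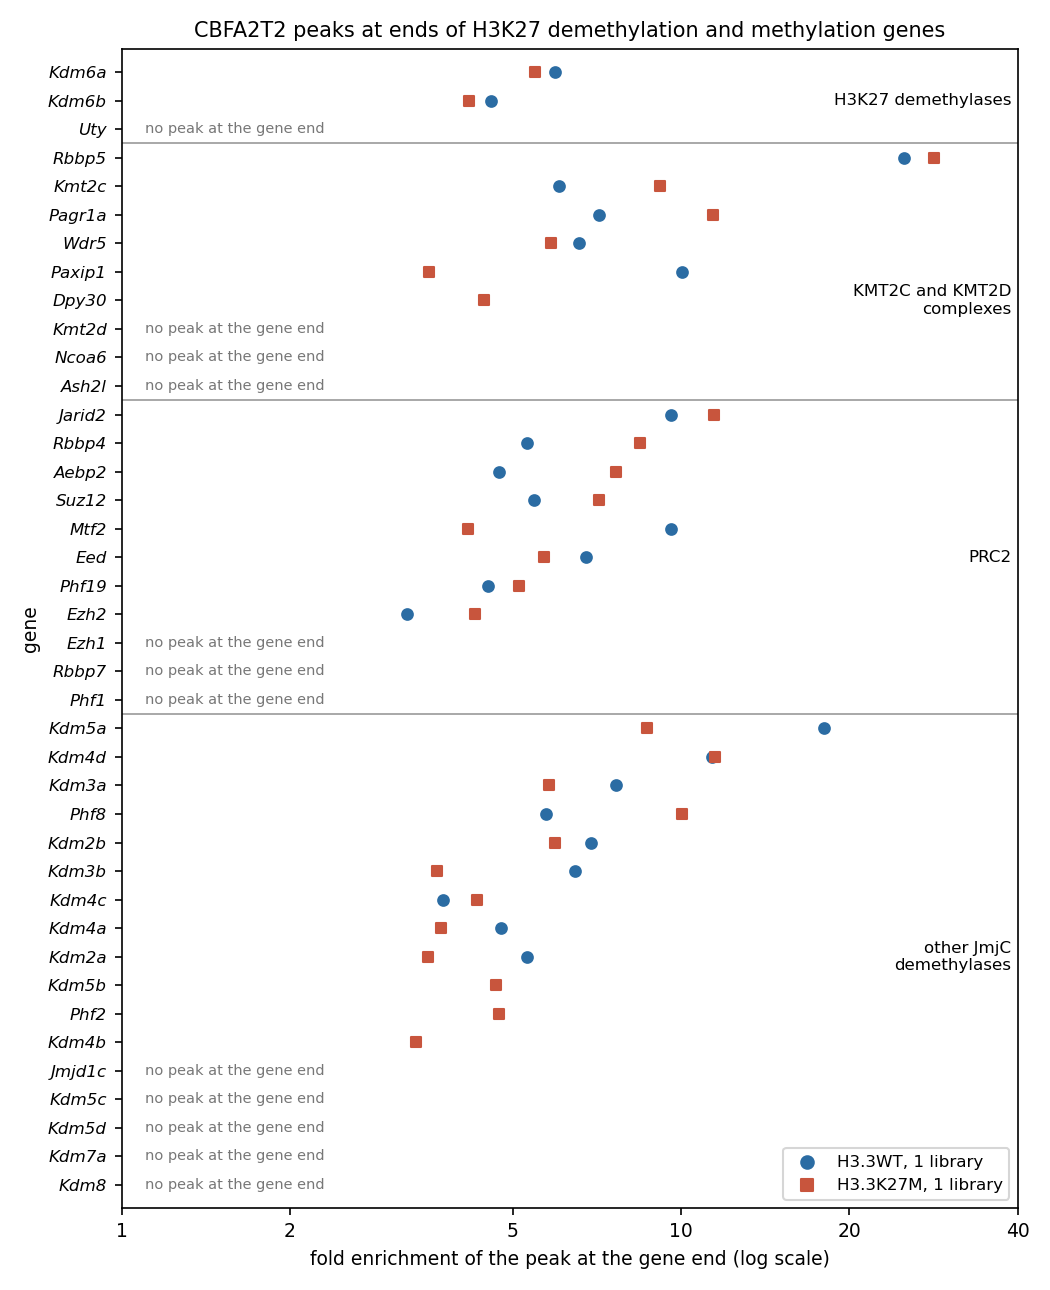
Fold enrichment (log scale) of the CBFA2T2 peak at the gene end for 40 genes in 4 groups, H3.3WT as circles and H3.3K27M as squares, 1 library each, ordered within a group by summed −log10 q. Kdm6a, at 5.96 and 5.49 fold, and Kdm6b, at 4.58 and 4.18 fold, lie far below Rbbp5 at 25.02 and 28.3 fold. Where no start was given, as for Kdm6b, either end of the gene was used.

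Words in promoters were compared for the 7 of these 40 genes whose window held a summit of both lists: Kdm6a, Pagr1a, Wdr5, Rbbp5, Jarid2, Kdm4c and Kdm4d. GGGCGG was in 5 of the 7, CACGTG in 2 (Kdm6a and Kdm4c) and CCGGAA in 1 (Kdm4d, with 4 matches). Among all windows with a summit of both lists the shares were 64.8%, 12.9% and 49.4%. Rbbp5, the strongest of the 40, held none of the 10 motifs in its window. At Kdm6a the GC content of 63% and the 21 CG dinucleotides were near the medians of 61% and 24 for windows with summits of both lists, and above the 56.3% and 13 of all windows.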

How the data were processed

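CBFA2T2 ChIP-seq peak lists of H3.3WT and H3.3K27M cells, 1 library each, were analysed. The submitters' processing notes name Trim Galore, MACS2 and mm10; an aligner, versions and thresholds are not given in the sources used here. Peak names in the deposited lists show 1 ChIP library set against input. Fold enrichment is a ratio made by the authors' caller, and −log10 p and −log10 q are deposited beside it; for every peak the deposited score equals −log10 q multiplied by 10, without its decimals, and was not used. The smallest −log10 q was 1.33 and 1.31, so weaker sites are absent, and folds of separately called lists were not divided.

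Coordinates are 1-based. RefSeq (GRCm38.p6) gave gene spans and, for 17492 of 21887 protein-coding genes, starts; for the other 4395 either end was used. Peaks were shared at an overlap of 1 bp and inside a gene by their summit. Counting in Python 3.11.15 (pandas 2.3.3) was tested on simulated peaks. Named by rule were genes with an end within 1 kb of the member peaks, the 4 genes per list of highest summed −log10 q and the 3 nearest by likeness; other list members were named to account for them. Members and lists were chosen with earlier results of these data known. With 1 library per genotype no test was possible.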

Additional observations from a re-analysis of the deposited data

How the results depend on the processing

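Counts were recomputed under stricter peak thresholds, other windows, other overlap criteria and equal list lengths. Of 92 alternative values, 75 stayed within 1.5 times the reported one and 17 did not. Many of the 75 are counts for Kdm6a. Its single peak passed both stricter thresholds and had no other peak within 50 kb of the gene, so these values say little about stability. With at least 5 fold, peaks near Kdm6b fell to 3 (H3.3WT) and 4 (H3.3K27M), those inside to 2 and 3, shared ones to 3 in each list, and related genes with an end peak to 16 in H3.3K27M. The share of genes with at least as many peaks as Kdm6b was then 2.2936% and 0.5483%. It was 0.0137% in both lists with a window of 5 kb, and 0.0183% in H3.3WT at −log10 q of at least 5. Overlap of at least 50% of both peaks left 4 shared near Kdm6b in each list. A distance of 3 kb gave 4 peaks near Kdm6b at a gene end in H3.3WT. Counting either annotated end of every gene, an alternative chosen after seeing the data, gave 0 peaks at an end for Kdm6a in both lists, because its RefSeq span opens before its start. No paired analysis was possible because each genotype has 1 library. Depth is unknown, so sites near the calling threshold may be missing from one list only.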
